A study of Mus musculus with 8 samples.

Results

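Open coding exons were examined in mouse gastrocnemius, a calf muscle, by ATAC-seq, an assay that tags DNA a transposase can reach and so counts reads over open chromatin. The members were the regions of the deposited table whose listed gene section begins with CDS Exon and that lie on chromosomes 1 to 19. There were 17681 of them among 489637 regions, spread over 7205 genes. The study held 8 libraries, 4 labelled vehicle and 4 labelled iMSBmal1KO. All carried the genotype Cre+:iMSBmal1 fl/fl and the time label 6 Months. The vehicle group had the treatment Vehicle and the iMSBmal1KO group Tamoxifen, the drug that activates an inducible Cre recombinase. Controls therefore also carried Cre and the floxed alleles, and tamoxifen itself cannot be told apart from loss of the gene. The promoter that drives Cre and the floxed exon are not given in the sources used here, and per the labels a pair of whole muscles was homogenised for nuclei. The labels do not say whether the libraries came from separate mice, so p-values measure the spread between these libraries. In nuclei from a whole muscle, fewer nuclei of a type and less accessibility per nucleus cannot be told apart.

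Accessible DNA is best known at promoters and enhancers, where transcription factors displace nucleosomes. A coding exon can be open because it lies just behind a promoter, because it holds a start site of a shorter transcript or an enhancer, or because heavy transcription disturbs the nucleosomes of the whole gene. BMAL1, listed in the table as Arntl, is a circadian transcription factor that pairs with CLOCK and binds E-boxes with the letters CACGTG. In muscle it is known to drive daily rhythms of metabolic and structural genes.

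The exon label was checked against the transcript each region is listed under. Of the 17681 regions, 10183 (57.6%) lay on a protein-coding transcript. Another 4475 (25.3%) lay on a transcript of a protein-coding gene whose own biotype is not protein-coding. Over all members, 2947 lay on retained-intron and 403 on nonsense-mediated-decay transcripts. The remaining 3023 (17.1%) lay in genes of other biotypes, with 1050 in lincRNA genes, 722 in genes listed as TEC and 614 in antisense genes. The label CDS Exon therefore also covered exons of transcripts that the table does not list as protein-coding, and the regions are called coding exon regions here by that label. Exon 1 held 6183 (35.0%), although every region was at least 100 bp from the start of its listed transcript. Regions were short, with a median length of 111 bp, and 42.1% directly abutted another region, so neighbours are not independent. The table gives no exon bounds, and a region can run past its exon.

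Some of these exons are promoters under another annotation. RefSeq start sites of GRCm38.p6 lay inside 42 of the tested regions. 3 of them, chosen after their values were seen, are shown because they are open in vehicle and belong to genes of muscle metabolism or identity. Pfkm encodes muscle phosphofructokinase, a regulatory enzyme of glycolysis, Lipe encodes hormone-sensitive lipase, and Cdh15 encodes M-cadherin, an adhesion protein of muscle. The 250 bases before each RefSeq start are printed 5′ to 3′ on the gene's strand, with the bases inside the coding exon region in capitals. The stretches are chr15:98111810-98112059 (plus strand) for Pfkm, chr7:25395988-25396237 (minus strand) for Lipe and chr8:122848124-122848373 (plus strand) for Cdh15, all on GRCm38.p6.
Pfkm: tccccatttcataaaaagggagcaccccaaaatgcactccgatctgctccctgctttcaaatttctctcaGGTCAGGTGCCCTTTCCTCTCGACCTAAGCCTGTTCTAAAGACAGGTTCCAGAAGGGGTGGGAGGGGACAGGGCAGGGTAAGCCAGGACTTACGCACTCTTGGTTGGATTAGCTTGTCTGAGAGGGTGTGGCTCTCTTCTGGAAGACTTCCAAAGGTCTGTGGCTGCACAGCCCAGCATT
Lipe: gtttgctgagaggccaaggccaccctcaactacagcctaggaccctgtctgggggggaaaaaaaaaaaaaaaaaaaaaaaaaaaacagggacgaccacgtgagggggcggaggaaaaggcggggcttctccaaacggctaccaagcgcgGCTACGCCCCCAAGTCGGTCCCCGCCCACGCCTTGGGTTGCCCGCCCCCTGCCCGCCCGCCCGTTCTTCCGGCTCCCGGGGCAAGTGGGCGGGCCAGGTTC
Cdh15: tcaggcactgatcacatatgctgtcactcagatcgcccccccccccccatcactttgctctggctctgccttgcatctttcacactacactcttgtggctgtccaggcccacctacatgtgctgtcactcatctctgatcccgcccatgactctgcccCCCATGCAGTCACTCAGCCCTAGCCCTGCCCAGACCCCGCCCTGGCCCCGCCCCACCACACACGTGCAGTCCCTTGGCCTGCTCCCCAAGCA
The Pfkm region is listed as exon 2, 19291 bp from the start of its listed transcript, yet 180 of the 250 bases before another Pfkm start fell inside it. The Lipe start lay in a region listed under 4732471J01Rik exon 1, which held 101 of the 250 bases. The Cdh15 region, listed as exon 1, held 92 of them. The motif CACGTG, which reads the same on both strands and cannot overlap itself, occurred once before Lipe, at base -155 and outside the region, and once before Cdh15, at base -32 and inside it. It was absent from the 250 bases before Pfkm, which says only that these letters are not in that window. Over RefSeq windows of 250 bases before to 50 after a start, CACGTG was in 10 of the 86 that overlapped a tested coding exon region (11.6%) and in 7.15% of all 32851 windows. In vehicle the signal per 100 bp was 155 at the Pfkm region, 113 at the Lipe region and 85.8 at the Cdh15 region. The log2 changes in iMSBmal1KO were -0.05, 0.12 and 0.03, with limma adjusted p of 0.950, 0.861 and 0.966.

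Depth set what could be seen. The libraries held 4.31 to 29.5 M read equivalents (M, units of 1e+06), the deposited signal divided by the value of 1 read in that library. Vehicle replicate 4 was the shallowest and stood apart, with 24.9% of regions at 0 and 16.5% mitochondrial reads against 1.11% to 5.51% in the other 7. Of the members, 5587 (31.6%) in 3375 genes passed a filter on low signal, against 44.2% of regions at transcription starts, 23.3% of intron and 18.1% of intergenic regions. Across all regions of each section, the median vehicle signal per 100 bp was 5.79 at coding exons, 8.14 at transcription starts, 4.90 at 5' UTR exons, 4.33 at 3' UTR exons, 4.31 at introns and 3.44 in intergenic DNA. Coding exon regions thus sat between transcription starts and introns in level, a description with no test. Marker genes of the muscle fibre led the signal. Of 9 fibre markers 7 held coding exon regions, whose summed signal ran from 6851 to 11990 in vehicle, lowest in replicate 4, and from 10357 to 12603 in iMSBmal1KO. None of the 6 leukocyte or 4 Schwann cell markers held a coding exon region, and 5 and 3 of them were listed at a region of any section. The 4 red blood cell markers were listed at no region of any section, so they say nothing about those cells. Over all libraries the 4 smooth muscle and pericyte markers with regions summed to between 151 and 227, the 6 endothelial markers to between 54.7 and 147, the 4 fibro-adipogenic markers with regions to between 30.8 and 53.2, the 2 satellite cell markers to between 33.9 and 51.2, and the 1 adipocyte marker to between 0 and 5.02. These sums also follow gene length, since titin alone held most of the fibre regions.

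The 15 most open genes of vehicle muscle included Ryr1, Atp2a1 and Mylk2, which act in calcium handling and contraction, 4 regulators of small GTPases and 3 genes of noncoding or ribosomal RNA. The highest value per length was at CT010467.1, a ribosomal RNA gene whose sequence is repeated in the genome, so its level is uncertain. Next came Ryr1, the calcium release channel of the sarcoplasmic reticulum, at a region listed as exon 1 of a retained-intron transcript (chromosome 7, 29123648 to 29124479). Its vehicle signal per 100 bp was 351, 280, 273 and 184, and its iMSBmal1KO signal was 235, 279, 264 and 304. The groups overlapped, with means of 272 ± 68.5 and 271 ± 28.8 (SD, n = 4 each).

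Atp2a1 encodes the calcium pump of fast fibres. Its exon 5 region (chromosome 7, 126458921 to 126459680), 3429 bp from the start, held 300, 249, 228 and 137 per 100 bp in vehicle and 243, 260, 249 and 272 in iMSBmal1KO. Vehicle replicate 4 was the low library here as well. Clec11a, which encodes a secreted growth factor of bone and marrow, held 229 ± 37.3 per 100 bp at exon 4 in vehicle against 204 ± 17.6 after tamoxifen. Pfkm exon 2, the region with the start site shown above, held 155 ± 21.5 and 151 ± 30.4. Mylk2, the myosin light chain kinase of skeletal muscle, held 154 ± 39.6 at exon 3 in vehicle against 129 ± 26.9 after tamoxifen. All 3 errors are SDs over 4 libraries. The other genes among the 15 most open included Angptl6, a secreted angiopoietin-like protein, Dpp8, a dipeptidyl peptidase, and Mmp2, a matrix protease. The rest were Rab11fip3, Rabgef1, Arhgef17 and Arhgef37, which act on small GTPases, and the noncoding genes 2310065F04Rik and Nctc1. Vehicle means of all these other genes lay between 144 and 176 per 100 bp. Adding the highest regions on protein-coding transcripts, chosen after their values were seen, brought in Hic2, Col6a3, Nup210, Trim35, Ppp1r12b, Grk6 and Kif1c. Of these 22 regions none passed the threshold in iMSBmal1KO. Only CT010467.1 had an unadjusted limma p under 0.05, at 1.25 on the log2 scale, with an SE of 0.29 and a limma adjusted p of 0.205. Ranked by signal per region in place of signal per base, 7 of the 15 genes stayed among the first 15.

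**Figure D1:**
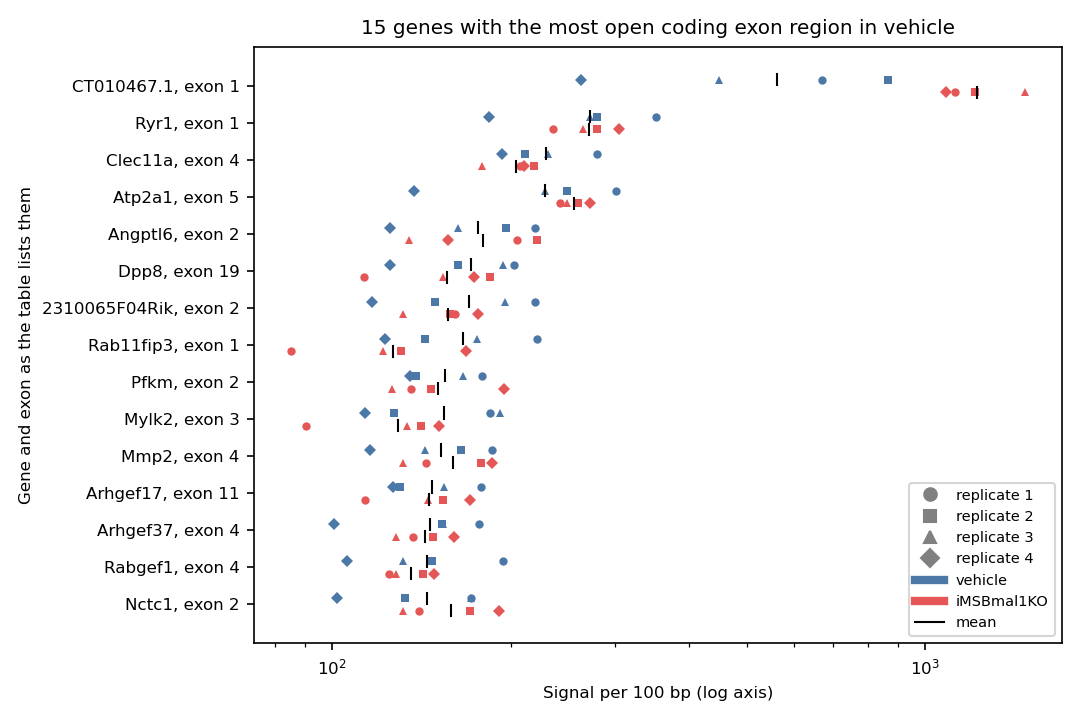
Signal per 100 bp (log axis) at the most open coding exon region of 15 genes, with 1 point per library, replicates by shape, groups by colour and the group mean as a bar. The groups overlap at every gene except CT010467.1, the ribosomal RNA gene, and vehicle replicate 4 is the lowest vehicle library at most genes.

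Most genes held few coding exon regions, and a few held many. Of 7205 genes 3375 (46.8%) held a single region, while 10 genes held 449 (8.04%) of the 5587 tested. Ttn, the giant elastic protein of the sarcomere, held 341 coding exon regions, of which 205 were tested, on 97 exon numbers from 2 to 306. Its vehicle level per 100 bp ran from 4.75 to a median of 14.4 and a highest value of 91.4, at exon 186 (chromosome 2, 76808399 to 76808872). Neb, the ruler protein of the thin filament, had 42 tested regions and Ryr1 40. Myh4, the fastest myosin heavy chain, had 30. Neat1, a nuclear noncoding RNA, had 32 although it has no coding exon, and its median level of 32.0 per 100 bp in vehicle was, together with Plin4 at 31.8, the highest of the 9 genes described here. Plin4, a lipid droplet coat protein, had 18, Pde4dip, a scaffold protein, 20, Syne1, a nuclear envelope protein, 11, and Irs1, the insulin receptor substrate with its coding sequence in a single exon, 10.

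None of these 9 genes held a region past the threshold, yet their regions did not all lie on the same side. Across the 124901 tested regions of the whole table the median log2 change was 0.12 as deposited and 0.01, 0.01 and 0.00 under median-of-ratios, loess and total-read scaling, so gene medians are read against it. Myh4 lay highest, with a median of 0.78 and 29 of 30 regions above the median of all. Of the 30, 12 had an unadjusted p under 0.05, all higher, beside 6.59% of all tested regions. The summed Myh4 coding exon signal was 1236, 1064, 876 and 444 in vehicle and 1497, 1489, 1075 and 1492 in iMSBmal1KO. Vehicle replicate 4 was the lowest and the groups overlapped, since iMSBmal1KO replicate 3 lay below the highest vehicle library. Without vehicle replicate 4 the Myh4 median was 0.38, and the median of all tested regions was 0.04. Relative to the median of all, Myh4 went from 0.66 to 0.35. Introns of Myh4 had a median of 0.60 over 12 tested regions, or 0.34 without vehicle replicate 4. The 1 tested region at a Myh4 transcription start went the other way, at -0.24, or -0.50 without that library. Myh1 and Myh2, neighbouring heavy chain genes of very similar sequence, had medians of -0.07 over 6 and 0.26 over 3 regions, and reads could be split between such copies in a way the files do not show.

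Titin showed the same lean at a smaller size. Its summed coding exon signal was 5811, 6112, 4936 and 3242 in vehicle and 6188, 6373, 5396 and 6467 in iMSBmal1KO, with overlap. The Ttn median log2 change was 0.38 and fell to 0.14 without vehicle replicate 4. Relative to the median of all tested regions it fell from 0.25 to 0.10. Of 205 Ttn regions 16 were higher at an unadjusted p under 0.05, beside 6.59% of all tested regions of the table. Ttn introns had a median of 0.26 over 59 regions. Ryr1 lay lowest of the 9, with a median of -0.23 and 13 of 40 regions positive. Of the 40, 3 were lower at an unadjusted p under 0.05, beside 2.63% of all tested regions. The 42 tested Ryr1 introns had a median of 0.12. The summed Ryr1 coding exon signal was 3928, 3184, 3511 and 2498 in vehicle and 2797, 3200, 2977 and 3578 in iMSBmal1KO, with complete overlap. Medians of the other genes were 0.26 for Neb, 0.32 for Neat1, 0.29 for Syne1, 0.21 for Irs1, -0.08 for Pde4dip and -0.09 for Plin4. Without vehicle replicate 4 they were 0.07, 0.22, 0.12, 0.09, -0.24 and -0.21 in the same order. Relative to the median of all tested regions they went from 0.14, 0.19, 0.16, 0.09, -0.21 and -0.21 to 0.04, 0.18, 0.08, 0.05, -0.28 and -0.24. Outside coding exons the medians of these genes were 0.29, 0.35, -0.18, 0.49, 0.09 and -0.15. Syne1 thus lay above the median of all, 0.12, in coding exons and below it elsewhere. Pde4dip differed in sign but lay below that median in both. Of 27 tested Syne1 regions outside coding exons, 4 were lower at an unadjusted p under 0.05 and 2 passed the threshold. Over all tested regions those shares were 2.63% and 0.0881%. Without vehicle replicate 4 the Syne1 and Pde4dip medians outside coding exons were -0.39 and -0.05, below the median of all of 0.04. Regions of 1 gene are not replicates, and no test over them was made.

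**Figure D2:**
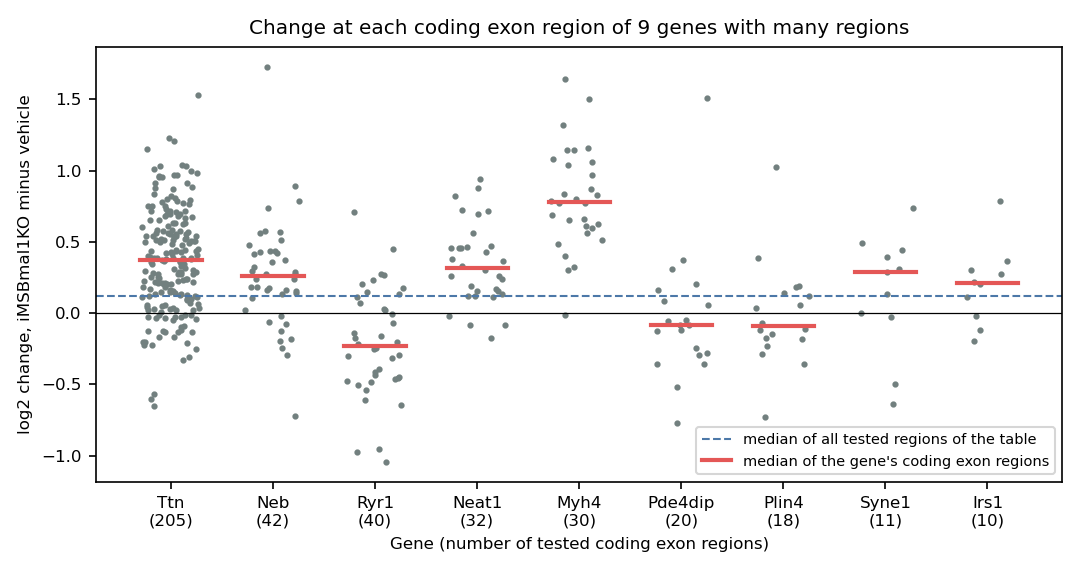
The log2 change (iMSBmal1KO minus vehicle, vertical axis) at each tested coding exon region of 9 genes with many regions, 1 point per region, with the gene median as a red bar and the median of all tested regions as a dashed line. Myh4 lies above the dashed line at 29 of 30 regions and Ryr1 has the lowest median of the 9, at -0.23.

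Knockout against vehicle, 2 of the 5587 tested coding exon regions passed the limma adjusted p threshold of 0.05, which is 0.0358% against 0.0881% of all tested regions of the table. Both were lower in iMSBmal1KO, where 0.0568% of all tested regions were called lower, and both lay in noncoding genes. None of the 3485 tested regions on protein-coding transcripts passed, and 287 of them had an unadjusted p under 0.05. Over all members, 468 (8.38%) had an unadjusted limma p under 0.05, beside 9.22% of all tested regions. Of these 286 (5.12%) were higher and 182 (3.26%) lower, beside 6.59% and 2.63% of all regions. That split depended on scaling. As deposited 61.1% of the 468 were higher, beside 71.5% of all tested regions with such a p. Under median-of-ratios, loess and total-read scaling 38.1%, 36.1% and 31.7% of the members with such a p were higher. Over all tested regions those shares were 49.9%, 48.4% and 43.5%. In 325 members (5.82%) the libraries of the groups did not overlap, beside 5.48% of all tested regions. The members' shares lay below these backgrounds for called regions and for higher regions. They lay above them for lower regions (3.26% against 2.63%) and slightly above for non-overlap, and these differences were not tested.

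The first called region was exon 4 of Gm49417, an antisense gene (ENSMUSG00000115186), at chromosome 14, 70208664 to 70208820. Its signal was 133, 87.3, 160 and 56.3 in vehicle and 18.0, 43.5, 33.4 and 27.6 in iMSBmal1KO. Every iMSBmal1KO library lay below every vehicle library. Gm49417 fell by 1.76 ± 0.33 (SE) on the log2 scale, with a limma adjusted p of 0.0416. This exon directly abuts a region listed at the transcription start of Sorbs3, the gene of the adhesion adaptor vinexin, on the opposite strand. All 11 tested regions within 10000 bp of it had a negative log2 change, from -2.20 to -0.48, 10 with an unadjusted p under 0.05 and 4 past the threshold. ATAC-seq reads carry no strand, so the Gm49417 exon and the Sorbs3 start beside it cannot be told apart as sources of the signal. A coding exon of Sorbs3 itself, exon 16 (chromosome 14, 70190843 to 70191096), held 27.7, 19.5, 43.2 and 68.8 in vehicle and 11.1, 13.4, 13.1 and 11.3 in iMSBmal1KO. The groups of Sorbs3 exon 16 did not overlap, and the drop, -1.48 on the log2 scale with an SE of 0.35, missed the threshold at a limma adjusted p of 0.164.

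The other called region was exon 2 of Gm11766, a lincRNA gene (ENSMUSG00000086924), at chromosome 11, 119940303 to 119940512. It held 38.4, 33.9, 43.8 and 37.5 in vehicle and 8.56, 7.53, 5.96 and 21.3 in iMSBmal1KO. The groups did not overlap, and iMSBmal1KO replicate 4 was the highest of its group. Gm11766 fell by 1.89 ± 0.35 (SE) on the log2 scale, with a limma adjusted p of 0.0399 and 5 to 20 read equivalents per iMSBmal1KO library. Within 10000 bp 3 other regions were tested, with log2 changes from -0.09 to 0.33 and none at an unadjusted p under 0.05. Over the 18 other settings the call was kept in 11 for Gm11766 and in 12 for Gm49417, mostly settings that use all 8 libraries. With a library left out, Gm11766 stayed called only without vehicle replicate 4 or iMSBmal1KO replicate 4. Gm49417 stayed called only without vehicle replicate 4 or iMSBmal1KO replicate 2. Without vehicle replicate 1, vehicle replicate 3 or iMSBmal1KO replicate 3, no coding exon region passed, and without vehicle replicate 4 there were 9. Over the whole table the calls numbered 32, 41, 39 and 281 in that order, beside 110 with every library.

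**Figure D3:**
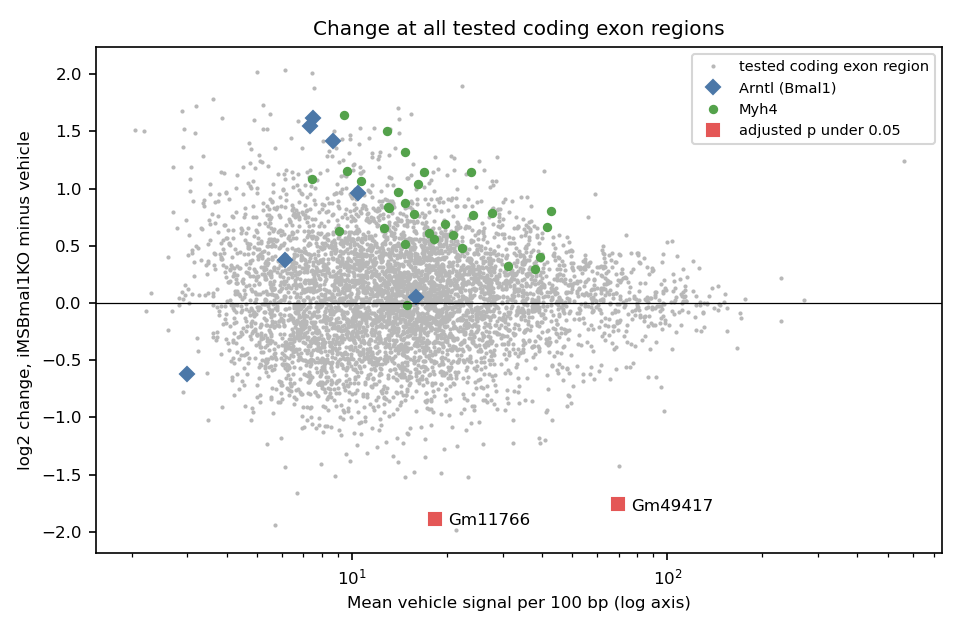
The log2 change (iMSBmal1KO minus vehicle, vertical axis) against mean vehicle signal per 100 bp (log axis) for all 5587 tested coding exon regions, with Arntl, Myh4 and the called regions marked. The 2 called regions, Gm11766 and Gm49417, lie below -1.5, and 6 of 7 Arntl regions lie above 0.

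The regions ranked next missed the threshold. Among the lower ones Efcab12, which encodes an EF-hand protein, held 356, 282, 412 and 216 in vehicle and 174, 146, 156 and 163 in iMSBmal1KO at exon 7, a log2 change of -0.94 with a limma adjusted p of 0.134. It passed in 5 of 18 other settings. Jak2, the kinase of cytokine receptors, held 89.5, 108, 78.8 and 84.4 in vehicle and 61.2, 34.3, 50.1 and 33.9 in iMSBmal1KO at exon 3, a log2 change of -1.03 with a limma adjusted p of 0.196. In both genes the groups did not overlap. Gm39465, with Sgsm2 and Tmem94 (named after their values were seen), had log2 changes of -1.43, -0.90 and -1.51, all with separate groups and limma adjusted p from 0.166 to 0.216. Among the higher ones, after Arntl, came Gm46637, CT010467.1, Gm50393 and Kbtbd13, a muscle adaptor of ubiquitin ligases, with log2 changes of 1.12, 1.25, 1.03 and 1.28 and limma adjusted p from 0.133 to 0.264. Higher regions on protein-coding transcripts in Sox4, Cntrl, Agmat and Kif13a, named after their values were seen, had limma adjusted p from 0.310 to 0.343.

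**Figure D4:**
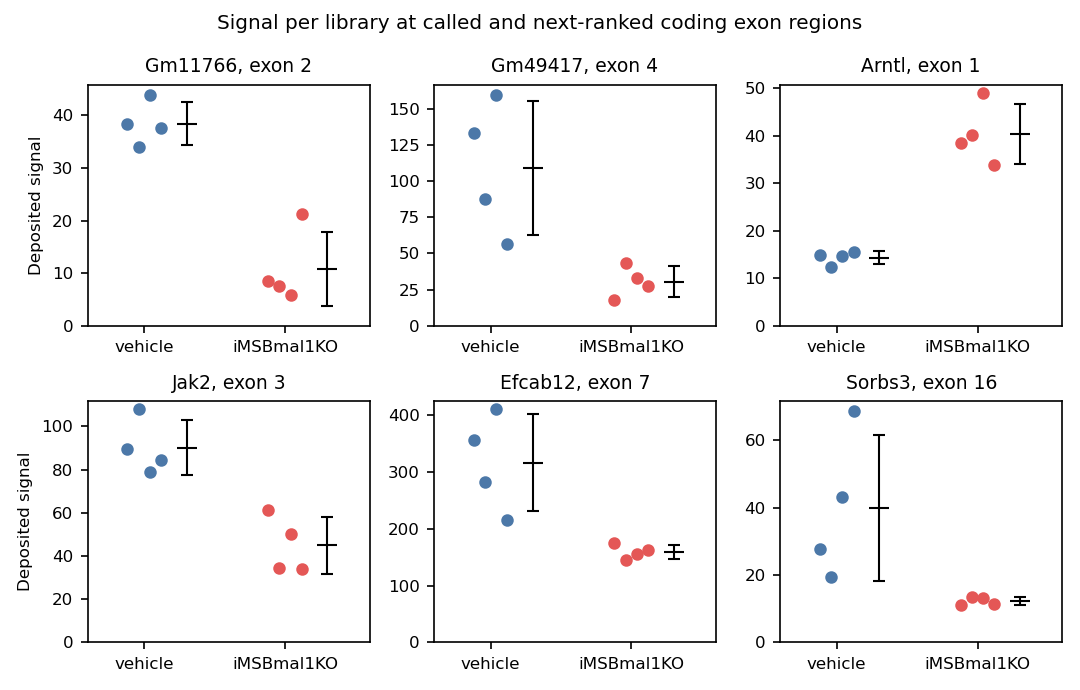
Deposited signal (vertical axis from 0) in each library at the 2 called regions and at 4 regions that missed the threshold, with the group mean and SD in black. In all 6 panels the 4 vehicle and 4 iMSBmal1KO libraries do not overlap, with Arntl exon 1 higher and the others lower in iMSBmal1KO.

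The targeted gene, Arntl (Bmal1), had 12 coding exon regions, of which 7 were tested. Of the 12, 9 lay in exon 1 of a retained-intron transcript, within the first part of the gene, and 3 on protein-coding transcripts at exons 5 and 13. The region at chromosome 7, 113242327 to 113242493, held 14.9, 12.3, 14.6 and 15.6 in vehicle and 38.5, 40.1, 48.9 and 33.9 in iMSBmal1KO. Its groups lay far apart, and the Arntl change, 1.42 on the log2 scale with an SE of 0.28, missed the threshold with a limma adjusted p of 0.0610. It passed in 4 of 18 other settings. Beside it, the regions that start at 113241280 and 113241391 held 3.13 to 11.3 in vehicle and 18.4 to 39.3 in iMSBmal1KO, with log2 changes of 1.62 and 1.54 and limma adjusted p of 0.150 and 0.219. The Arntl region nearest the start, at 113240378, had a log2 change of 0.06, and those at 113241644 and 113242174 had 0.37 and 0.96. Of the 7 tested regions 6 were positive and 4 had an unadjusted p under 0.05, all higher, beside 6.59% of all tested regions.

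The Arntl exon 5 region, 113285062 to 113285936, was the only negative one of the 7. It held 24.5, 24.7, 21.0 and 34.4 in vehicle and 8.56, 18.4, 39.4 and 11.3 in iMSBmal1KO. The groups overlapped, through iMSBmal1KO replicate 3, at -0.62 on the log2 scale, with an SE of 0.39 and a limma adjusted p of 0.609. The exon 13 region and a second exon 5 region were too low to test, at 7.53 or less in every library. The 30 tested regions of Arntl outside coding exons had a median of 0.57, with 1 past the threshold, beside a median of 0.96 for the 7. Whether any of these regions lies in the deleted part was not tested, since the sources used here do not name it.

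Genes with 3 or more tested coding exon regions, all on the same side of 0 and at least 2 with an unadjusted p under 0.05, were named as well. None held a called region. They were picked from 408 genes with 3 or more tested regions, and how many chance would give was not tested. Their shared direction and small p follow from that rule, so sums over the same regions are not separate support. Some regions abut, as in Tmem64 and Rnf144b, and are not independent. On the lower side were Mylk4, a myosin light chain kinase family member, Asb10 and Rnf144b, which serve ubiquitin ligases, Cacna2d4, a calcium channel subunit, and Dus1l, a dihydrouridine synthase. The summed Mylk4 coding exon signal was 322, 256, 243 and 159 in vehicle and 131, 140, 122 and 122 in iMSBmal1KO, with no overlap. Outside its coding exons Mylk4 had 26 of 47 tested regions lower at an unadjusted p under 0.05, beside 2.63% of all tested regions. Of the 47, 1 passed the threshold, and their median was -0.94. The Mylk4 coding exon median of -0.81 became -1.27 without vehicle replicate 4. Relative to the median of all tested regions it went from -0.93 to -1.30. Asb10 coding exons had a median of -0.82 and its 6 other regions -0.57. In Dus1l the coding exons had a median of -0.56 and the 4 other regions 0.31. Cacna2d4 and Rnf144b coding exons had medians of -0.97 and -1.02, and their other regions -0.27 and -0.07.

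On the higher side were Ldb3, a Z-disc protein, Acsl1, which activates fatty acids, Camk2d, a calcium-dependent kinase, and Tmem64. Ldb3 had 5 of 5 regions positive, as the rule requires, and 3 with an unadjusted p under 0.05. Its summed signal was 120, 102, 158 and 81.3 in vehicle and 185, 161, 169 and 161 in iMSBmal1KO. The Ldb3 sums did not overlap, and its median of 0.91 became 0.46 without vehicle replicate 4. Relative to the median of all tested regions it went from 0.79 to 0.42. Its 59 other regions had a median of 0.18. Acsl1 had a median of 1.15 over 3 regions, with its 19 other regions at 0.08. Camk2d had 0.61 and its 24 other regions 0.41, and Tmem64 0.77 and its 6 other regions 0.34. Without vehicle replicate 4 the coding exon medians of Acsl1 and Camk2d were 0.75 and 0.38, where the median of all tested regions was 0.04. The third Tmem64 region, at 0.06, was negative under all 3 other scalings, and the third Acsl1 region, at 0.11, under total-read scaling. The third Rnf144b region, at -0.19, was at 0.04 without iMSBmal1KO replicate 4.

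Gene lists show which classes of gene hold open coding exons in muscle. Of 13 fast fibre genes 7 held coding exon regions, 60 of them tested, led by Atp2a1, Mybpc2 and Myh1, while the troponins Tnnt3, Tnni2 and Tnnc2, with Mylpf, Casq1 and Pvalb, held none. Of the 60, 53 were positive, with a median of 0.51, beside a median of 0.12 over all tested regions. Positive here means above 0, not above that median. At an unadjusted p under 0.05, 12 were higher and 1 lower, beside 6.59% and 2.63% of all tested regions, and none was called. Myh4 supplied all 12. Of 9 slow fibre genes only Tnni1 and Myh7b had tested regions, 3 in all, with a median of 0.59. Tnni1, the slow troponin I, held 66.1, 55.5, 61.6 and 46.9 in vehicle and 88.6, 90.3, 82.3 and 85.3 in iMSBmal1KO at exon 2, without overlap, at a log2 change of 0.59 and a limma adjusted p of 0.490. The giant, Z-disc and M-band list had 332 tested regions in 13 genes, of which Ttn supplied 205. Of the 332, 259 were positive, with a median of 0.27. At an unadjusted p under 0.05, 22 were higher, a share close to the 6.59% of all tested regions. Excitation-contraction coupling genes had 45, of which Ryr1 held 40, with a median of -0.20.

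Enzymes of glycolysis and the phosphagen system had few but very open exon regions. The 9 tested regions, in 5 of 13 genes, had a median of 69.6 per 100 bp in vehicle, beside 13.9 over all tested members, led by Pfkm, Pygm, the muscle glycogen phosphorylase, at 110 and Aldoa, an aldolase, at 89.2. Their median log2 change was -0.05. The clock list had 15 tested regions in 6 of 19 genes, with a median of 0.23, and Arntl supplied all 4 with an unadjusted p under 0.05. Dbp, a clock output factor, stood at 19.4 per 100 bp in vehicle, with a log2 change of 0.33 and a limma adjusted p of 0.765. Developmental transcription factors had 33 tested regions in 13 of 30 genes, with a median of 0.25, led by Myod1, the muscle determination factor, at 66.7 per 100 bp. Small regulators with few introns had 17, led by Cebpb at 63.0 and Irs1 at 44.6, with a median of 0.25. Immediate-early genes had 16, led by Fosb at 86.6, with a median of -0.08.

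The lists defined by gene family were covered unevenly. Of 80 ribosomal protein genes 7 held a region and 4 regions were tested, led by Rpl38 at 31.7 per 100 bp. Replication-dependent histone genes had 5 tested regions in 2 of 60 genes, led by H2bc6 at 33.5. Of 157 olfactory receptor genes in the table, which are not used in muscle, 6 held a region, and the 2 tested, Olfr70 and Olfr763, stood at 5.35 and 5.23. Clustered protocadherins held 52 regions in 27 of 41 genes, but only 3 were tested. Zinc finger genes had 71 tested regions in 41 of 383 genes, led by Zfp91 at 97.0, with a median of -0.07. No region of any of the 14 lists was called, and the smallest limma adjusted p in each list outside the clock list was 0.31 or more.

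As a share of each library's coding exon reads, the slow fibre list took 0.0572%, 0.0581%, 0.0587% and 0.0434% in vehicle and 0.0769%, 0.0640%, 0.0764% and 0.0645% in iMSBmal1KO. The developmental factors took 0.345%, 0.340%, 0.366% and 0.323% in vehicle and 0.376%, 0.400%, 0.395% and 0.409% in iMSBmal1KO. The groups did not overlap in these 2 lists and overlapped in the other 12. The fast fibre list took 1.35%, 1.23%, 1.11% and 0.797% in vehicle and 1.37%, 1.40%, 1.28% and 1.41% in iMSBmal1KO. Vehicle replicate 4, the library with the most mitochondrial reads and the lowest fibre marker signal, was lowest in all 3. With each library left out in turn, the slow fibre share difference ran from 0.0125 to 0.0183 percentage points. It ran from 0.0450 to 0.0590 for the developmental factors and from 0.132 to 0.318 for the fast fibre list. The cause of these differences was not tested. No list passed the exact two-sided permutation test over 4 against 4 libraries after Benjamini-Hochberg adjustment over the 14 lists. The lowest adjusted p was 0.160. The slow fibre and developmental lists both had an unadjusted permutation p of 0.0286, the smallest this test can give. Most of the 14 lists would have to reach that p before any adjusted p could fall under 0.05. The adjusted test therefore cannot decide whether a few lists differ, and no conclusion is drawn from it.

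The share of autosomal reads in all coding exon regions was 2.57%, 2.52%, 2.88% and 2.62% in vehicle and 2.61%, 2.47%, 2.22% and 2.53% in iMSBmal1KO. The groups overlapped, with vehicle replicate 3 highest and iMSBmal1KO replicate 3 lowest. The means were 2.65% ± 0.163 and 2.46% ± 0.167 (SD, n = 4 each), with an exact two-sided permutation p of 0.171, or 0.309 after Benjamini-Hochberg adjustment over 12 shares. Split by kind, exons on protein-coding transcripts took 1.63% ± 0.120 and 1.51% ± 0.102, those on other transcripts of protein-coding genes 0.601% ± 0.0378 and 0.553% ± 0.0403, and those in other genes 0.411% ± 0.00705 and 0.392% ± 0.0275. Regions 1 kb or more from the start took 1.93% ± 0.111 and 1.78% ± 0.116, with an exact permutation p of 0.0857 (0.257 adjusted). The median log2 change of coding exon regions lay 0.07 below that of all tested regions, a relative value of -0.07, beside 0.05 at transcription starts, -0.03 at introns, 0.01 in intergenic DNA and -0.06 at transcript ends. Tested members under 1 kb from the start and those farther away lay at -0.06 and -0.07.

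**Figure D5:**
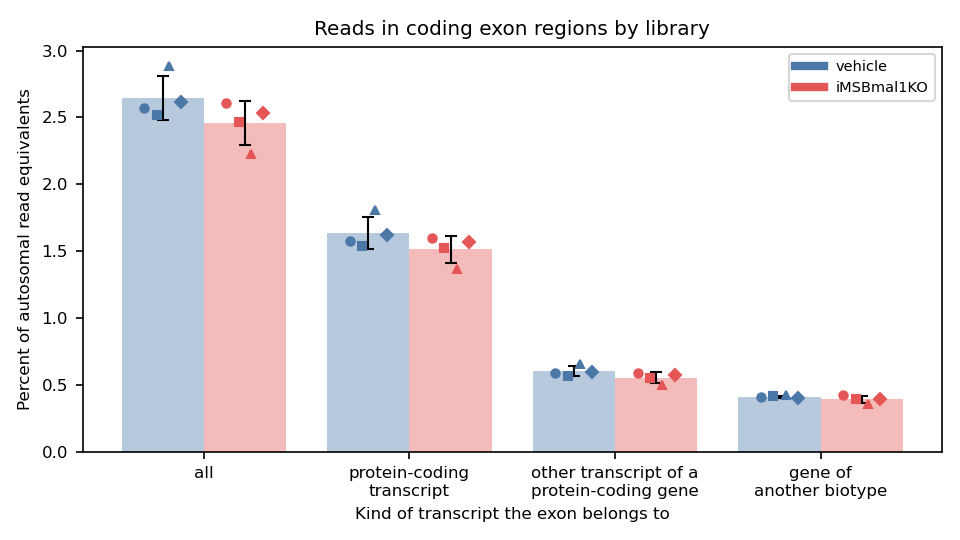
Percent of autosomal read equivalents in coding exon regions (vertical axis from 0), in all and by the kind of transcript, with bars for group means, error bars for SD over 4 libraries and 1 point per library. The groups overlap in all 4 categories, and exons on protein-coding transcripts hold most of the reads.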

How the data were processed

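ATAC-seq signal was deposited by the authors as a single table of 489637 regions by 8 libraries. The submitters' processing notes name Partek, Bowtie2, MACS2, DESeq2, mm10 and GRCm39, with no role or version. Region starts followed GRCm38.p6, since 72.5% of the gene starts found in both sources lay within 50 bp of RefSeq. Starts are counted from 1 and the listed stop is the first base after the region. The deposited signal values were whole multiples of a value per library (within 0.02 reads for 97.3% to 99.8% of values), which gave read equivalents. PCR copies could not be told from separate molecules.

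Regions were tested if at least 4 libraries held 0.762 read equivalents per 1000000 (10 at the median depth) and the total was at least 15. The 124901 that passed were fitted together with limma 3.58.1 (R 4.3.3) on log2(signal + 1), with trend, robust moderation, group as the sole term and Benjamini-Hochberg adjustment. Log2 changes are on that scale and understate changes of low regions. Shares were compared by exact two-sided permutation over 70 arrangements, where the smallest p is 0.0286. The fit was tested on simulated data. Python 3.11.15 with pandas 2.3.3 and matplotlib 3.10.9 made the other values.

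The members and gene lists were chosen with earlier results of these data known. Named were the 15 most open genes (and 10 at 1 kb or more from a start), the 10 genes with most tested regions, called regions and the 5 with the smallest p per direction, up to 3 most open genes per list, Arntl, and genes whose regions all moved one way. Regions on protein-coding transcripts beyond these were added after values were seen. Alternatives covered scaling, pseudocount, filter, voom, the replicate number, the threshold, and each library left out. Of the members' gene symbols 4900 (68.0%) matched the RefSeq promoter table. Sequences come from RefSeq GRCm38.p6. Some genes that the naming rule selects are not reported here.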

Additional observations from a re-analysis of the deposited data

Results flagged for a closer look

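In 3 of 150 group values a single library lay far outside the other 3 of its group, where chance gives about 7.5. The slow fibre list took 0.0434% of coding exon reads in vehicle replicate 4, while the remaining 3 of that group ranged from 0.0572% to 0.0587%. The Gm11766 exon 2 region, called lower, held a signal of 21.3 in iMSBmal1KO replicate 4, against 5.96 to 8.56 in the other iMSBmal1KO libraries. The summed Myh4 coding exon signal was 1075 in iMSBmal1KO replicate 3, against 1489 to 1497 in the other iMSBmal1KO libraries.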

How the results depend on the processing

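The 2 called coding exon regions, both lower and neither on a protein-coding transcript, became 7 (7 lower, 4 on protein-coding transcripts) under median-of-ratios scaling, 6 (6 lower, 2 on protein-coding transcripts) under total-read scaling and 10 (10 lower, 4 on protein-coding transcripts) under loess scaling, and each of these held both Gm11766 and Gm49417. Over the whole table calls rose as well, from 110 as deposited to 279, 223 and 342 under those scalings in the same order. A pseudocount of 5 gave 4 calls (1 higher), the stricter filter 3 (1 higher), and limma-voom 7 (1 higher, 6 lower, 3 on protein-coding transcripts). The whole table held 162, 127 and 342 calls in these settings. An adjusted p under 0.01 left 0 calls, 0 lower. The replicate block gave 1 call, 1 lower, Gm49417. Libraries with the same number correlated between -0.06 and 0.14 and 1 of 8 libraries, iMSBmal1KO replicate 2, correlated best with its own number in the other group, so the numbers were not taken as pairs. With each library left out in turn, calls ran from 0 to 9, higher calls from 0 to 2, lower calls from 0 to 7 and calls on protein-coding transcripts from 0 to 3. Calls over the whole table ran from 32 to 281 in those runs. The cause of these shifts was not tested, beyond fewer libraries. The edgeR and DESeq2 alternatives were not run, since recovery of whole reads was not complete.

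The median of coding exon regions stayed below that of all regions, from -0.10 to -0.04, and the share difference stayed negative, from -0.238 to -0.0548. Ranking by signal per region kept 7 of the 15 most open genes, and leaving out vehicle replicate 4 kept 14. The Tmem64 region that starts at 15266393 went to -0.055, -0.064 and -0.090 under median-of-ratios, total-read and loess scaling, and to between -0.11 and 0.21 with a library left out. The Acsl1 region at 46524945 went to -0.0050 under total-read scaling and to between -0.015 and 0.29 with a library left out, and the Rnf144b region at 47237533 to between -0.67 and 0.038. The zinc finger share difference was -0.00204 percentage points with all autosomal reads as denominator. With a library left out, share differences ran from -0.0734 to 0.0602 for excitation-contraction coupling, from -0.0487 to 0.0182 for glycolysis and from -0.0159 to 0.00537 for immediate-early genes. Vehicle replicate 4, with 4.31 M read equivalents, limits the low regions most.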
